A study of Mus musculus with 7 samples.

Results

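The Hippo pathway in the mouse pancreas at E15.5 was described here through 10 genes, chosen by name from the pathway and its YAP targets: Yap1, Wwtr1, Tead1, Tead2, Wwc1, Lats2, Amotl1, Amotl2, Ajuba and Ankrd1. All 10 were matched by Ensembl identifier among 27138 rows of the deposited count table, and 9 had enough counts to be tested, Ankrd1 being the exception. The cKO group held 3 embryos with Pdx1-Cre, a transgene active in the pancreatic epithelium, and with both copies floxed of 2610035D17Rik, the long non-coding RNA gene that is orthologous to human LINC00673. The WT group held 4 embryos with the same floxed alleles (mLINC00673 fl/fl) and no Cre, so an effect of the deletion and an effect of Cre cannot be told apart. Each library was made from the whole pancreas of 1 animal, by sequencing of polyadenylated RNA.

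The Hippo pathway is a kinase cascade through which cell contacts, polarity and mechanical tension restrain growth. The kinases STK3 and STK4 with the scaffold SAV1 activate LATS1 and LATS2, which phosphorylate the coactivators YAP1 and TAZ (encoded by Wwtr1) and so keep them out of the nucleus. Unphosphorylated YAP1 and TAZ bind TEAD proteins on DNA and raise the transcription of targets that include several inhibitors of the pathway itself. In the developing mouse pancreas YAP1 is known from progenitor and duct cells and is lost as cells enter the endocrine lineage. Much of this control acts on the proteins, which RNA levels do not measure.

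The libraries held 14883918 to 17767373 counts. Defining genes of the labelled tissue were abundant, with Pdx1, the master regulator of the pancreas, at 67.4 ± 16.0 CPM (counts relative to the TMM-scaled size of each library) in cKO and 72.6 ± 6.98 CPM in WT (SD, n = 3 and n = 4). Cpa1, an acinar zymogen gene, averaged 4991 ± 842 CPM in cKO and 5739 ± 2070 CPM in WT. The targeted RNA, 2610035D17Rik, averaged 2.55 ± 0.726 CPM in cKO and 8.65 ± 0.498 CPM in WT, and every cKO library lay below every WT library. Even so, this RNA did not pass edgeR's quasi-likelihood test used below (log2 fold change −1.76, Benjamini-Hochberg adjusted p = 0.0902). Nor did limma-voom call it (adjusted p = 0.133), whereas DESeq2 did (adjusted p = 1.25e-09). Some libraries stood apart. The 5 summed liver markers reached 1783 CPM in cKO replicate 1 and 1173 CPM in WT replicate 4, against 300.4 to 410.3 CPM in the other 5 libraries. Much of the lower sums was 1 marker, Ttr, with 299 ± 56.0 CPM in cKO and 282 ± 37.9 CPM in WT. Alb varied far more, with 245 ± 385 CPM in cKO and 99.4 ± 170 CPM in WT. The 6 summed markers of neurons and Schwann cells also varied, with 627, 120 and 130 CPM in cKO replicates 1 to 3. In WT replicates 1 to 4 they summed to 442, 88.5, 387 and 240 CPM. WT replicate 2 was the only library with abundant Xist. The header of WT replicate 4 carried the number 7 where the other 6 libraries carried a 6, and no source used here says what the number marks.

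YAP1 and TAZ reach DNA through TEAD proteins, whose core recognition sequence is GGAATG, read on the other strand as CATTCC. The sequences before the starts of Ankrd1, Amotl2 and Ajuba are shown because these 3 members are known YAP targets and hold the core before their start. Each line gives the 250 bases before the RefSeq start (GRCm38.p6), 5′ to 3′ on the gene's strand, with the core in capitals. The regions are chr19:36119845-36120094 on the minus strand for Ankrd1, chr9:102717554-102717803 on the plus strand for Amotl2 and chr14:54577662-54577911 on the minus strand for Ajuba.
Ankrd1: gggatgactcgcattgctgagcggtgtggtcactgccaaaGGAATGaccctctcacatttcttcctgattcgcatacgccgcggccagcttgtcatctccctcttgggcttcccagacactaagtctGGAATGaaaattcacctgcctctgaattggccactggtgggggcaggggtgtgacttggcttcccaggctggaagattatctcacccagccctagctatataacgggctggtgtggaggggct
Amotl2: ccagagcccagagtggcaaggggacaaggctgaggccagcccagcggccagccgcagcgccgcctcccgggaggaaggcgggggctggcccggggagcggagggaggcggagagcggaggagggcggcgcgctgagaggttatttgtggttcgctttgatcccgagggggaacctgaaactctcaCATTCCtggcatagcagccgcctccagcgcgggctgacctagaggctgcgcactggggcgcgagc
Ajuba: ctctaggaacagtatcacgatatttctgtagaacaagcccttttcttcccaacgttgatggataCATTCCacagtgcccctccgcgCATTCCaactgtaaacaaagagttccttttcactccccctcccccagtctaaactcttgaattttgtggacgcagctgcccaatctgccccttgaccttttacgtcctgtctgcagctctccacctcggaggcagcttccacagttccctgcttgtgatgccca
Counted from the start, the cores begin at positions -210 and -123 in Ankrd1, at -65 in Amotl2, and at -186 and -164 in Ajuba. Windows from 250 bases before to 50 bases after the start were matched for 9 of the 10 members (11 windows in all). The core was found on either strand for 6 of these 9 genes, Yap1, Wwtr1, Lats2, Amotl2, Ajuba and Ankrd1. By window it was in 7 of 11 (63.6%), counting 1 core of Wwtr1 in both of its overlapping windows, where 14.7% of 32851 mouse windows of the same length hold it. The longer match GGAATGT, read on the other strand as ACATTCC and containing the core, was found for Yap1, Amotl2 and Ajuba, and 3.85% of all windows hold it. Of the 19 genes listed below as YAP targets, 12 had a window and 3 of these held the core, in Ccn1, Axl and Crim1. The longer match was found for 2 of the 12, Axl and Ccn1. These are matches of letters and no measurement of binding.

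Levels of different genes were compared as CPM per kb of annotated exon, averaged over the 7 libraries. Tead2 was the most abundant member at 46.0 CPM per kb (range 41.8 to 47.7), and its lowest library lay above the highest of any other member. Wwc1 followed at 28.0 CPM per kb, also clear of the next. Yap1 (16.5), Amotl2 (15.9), Amotl1 (15.1), Wwtr1 (12.5), Ajuba (11.5) and Tead1 (8.47) formed a run, each gene's range overlapping that of the next. The order of neighbours there changed between libraries, except that Ajuba lay above Tead1 in each of the 7. Lats2 stood lower at 2.70 CPM per kb. Ankrd1 was near the limit of detection at 0.121 CPM per kb. Among the other TEAD genes Tead3 had 6.91 and Tead4 1.37 CPM per kb, so that Tead2 RNA exceeded each of the other TEAD RNAs in this tissue.

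**Figure D1:**
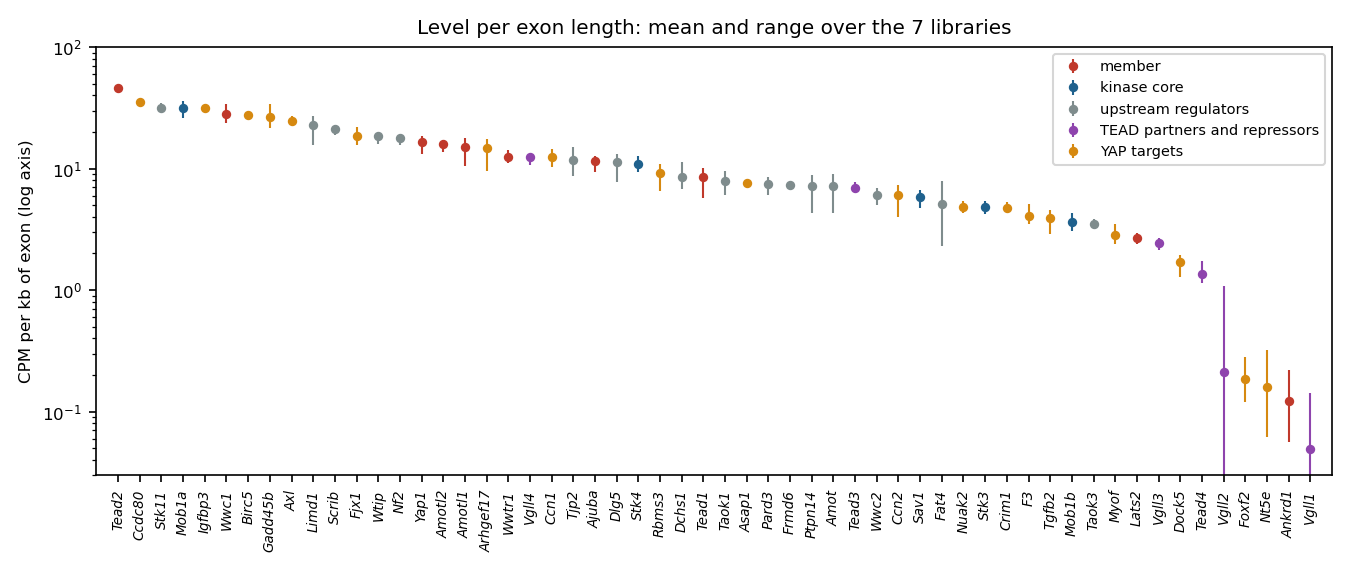
Level of each Hippo pathway gene in CPM per kb of exon on a log axis, with points for the mean and lines for the range over the 7 libraries, coloured by list. Tead2 leads at 46.0 and Ankrd1 lies near the low end at 0.121, and lines that reach the lower edge belong to genes with 0 counts in a library.

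The coactivator genes Yap1 and Wwtr1 did not pass the test between genotypes. Yap1 (ENSMUSG00000053110) had 121, 161 and 164 CPM in cKO replicates 1 to 3, against 148, 167, 171 and 139 CPM in WT replicates 1 to 4. The groups overlapped, with cKO replicate 1 the lowest of all. The means were 148 ± 23.8 CPM in cKO and 156 ± 15.2 CPM in WT (SD, n = 3 and n = 4), a log2 fold change of −0.08 (SE 0.125) whose 95% interval ran from 0.780-fold to 1.15-fold. Wwtr1 (ENSMUSG00000027803) had 54.0, 59.0 and 67.6 CPM in cKO and 60.6, 57.2, 66.8 and 53.4 CPM in WT. Again the groups overlapped, with a log2 fold change of 0.02 (SE 0.107) and an interval of 0.855-fold to 1.20-fold. Per kb, the ratio of Wwtr1 to Yap1 was 0.792 ± 0.0765 in cKO and 0.738 ± 0.0540 in WT, and the ratios of the groups overlapped.

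**Figure D2:**
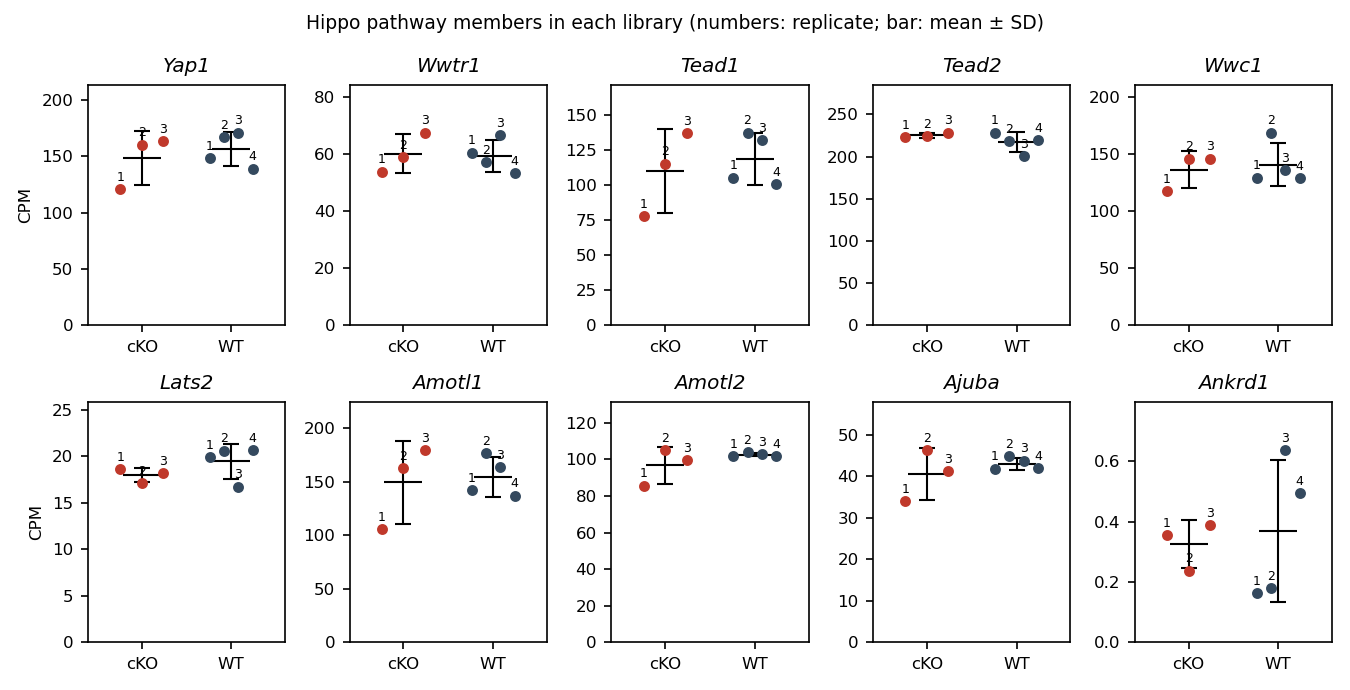
CPM of the 10 members in each library, cKO left and WT right, with numbers giving the replicate and bars the mean and SD, each axis starting at 0. The groups overlap in every panel, and cKO replicate 1 is the lowest library for 6 members.

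The TEAD genes encode the DNA-binding partners. Tead2 (ENSMUSG00000030796) varied least of the members, with 223, 224 and 228 CPM in cKO and 228, 219, 200.1 and 219.8 CPM in WT. Its log2 fold change was 0.05 (SE 0.0753), with an interval of 0.922-fold to 1.17-fold, the narrowest among the members. Tead1 (ENSMUSG00000055320) spread much more, with 77.8, 115 and 137 CPM in cKO and 105, 137, 132 and 100.3 CPM in WT. Its libraries differed up to 1.76-fold, against 1.14-fold for Tead2. The Tead1 log2 fold change was −0.11 (SE 0.198), and its interval of 0.676-fold to 1.27-fold was the widest among the members. The ratio of Tead2 to Tead1 per kb was 8.11, 5.51 and 4.73 in cKO and 6.15, 4.51, 4.31 and 6.21 in WT. That ratio therefore moved more between embryos of one genotype than between the genotype means (6.12 ± 1.77 in cKO and 5.30 ± 1.03 in WT).

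Upstream of YAP1, Wwc1 encodes KIBRA, a scaffold that promotes LATS activation, and Lats2 encodes the kinase. Wwc1 (ENSMUSG00000018849) had 118, 146 and 146 CPM in cKO and 129, 169, 136 and 129 CPM in WT. WT replicate 2 was high and cKO replicate 1 low, and the log2 fold change was −0.04 (SE 0.124). Lats2 (ENSMUSG00000021959), itself also a known YAP target, had 18.6, 17.1 and 18.2 CPM in cKO and 19.9, 20.6, 16.7 and 20.7 CPM in WT. Here 3 of 4 WT libraries lay above all cKO libraries while WT replicate 3 was the lowest of the 7. The log2 fold change of −0.12 (SE 0.112, interval 0.774-fold to 1.10-fold) was the most negative among the members. In the GENCODE M21 annotation 2955 of the 6971 exon bases of Lats2 are shared with the overlapping gene Gm49361 on the same strand, so reads there could have been split or left out in counting. No row of the deposited count table was matched to the name Gm49361.

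The motins AMOTL1 and AMOTL2 hold YAP1 at cell junctions. Amotl1 (ENSMUSG00000013076) had 106, 163 and 180 CPM in cKO and 142, 177, 164 and 137 CPM in WT. The 3 cKO libraries alone spanned the whole range of the data, and the log2 fold change was −0.05 (SE 0.179). Amotl2 (ENSMUSG00000032531), which is also a known YAP target, had 85.6, 105 and 99.7 CPM in cKO and 102, 104, 103 and 102 CPM in WT. The WT libraries agreed closely at 103 ± 0.954 CPM (SD, n = 4), and the cKO mean of 96.8 ± 10.1 CPM (SD, n = 3) was lowered by cKO replicate 1. Its log2 fold change was −0.08 (SE 0.0843). Ajuba (ENSMUSG00000022178), a LIM domain protein that inhibits LATS and a reported YAP target in human cells, had 33.9, 46.3 and 41.1 CPM in cKO and 41.8, 44.7, 43.7 and 41.8 CPM in WT. The lowest and the highest library were both cKO, and the log2 fold change was −0.09 (SE 0.109).

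Ankrd1 (ENSMUSG00000024803), which encodes an ankyrin repeat protein of muscle and is among the most used YAP reporter genes, was barely detected. It had 6, 4 and 7 counts in cKO replicates 1 to 3, against 3, 3, 11 and 7 counts in WT replicates 1 to 4. These counts overlapped, and at this depth no difference was detectable. Heart muscle markers, from a tissue known for high Ankrd1, summed to at most 7.68 CPM in cKO and 2.37 CPM in WT.

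Set against all features, 0 of the 9 tested members passed in edgeR's quasi-likelihood test at a Benjamini-Hochberg adjusted p under 0.05 (adjusted p = 0.9999 for each), where 1 of 16910 tested features, or 0.00591%, did. DESeq2 and limma-voom also called 0 members, where DESeq2 called 0.0769% of features and limma-voom 0.00591%. At an unadjusted edgeR p under 0.05 there were 0 members, where 1.38% of features fell under it. The exact two-sided permutation test of log2 CPM over the 35 divisions of the libraries gave p between 0.286 (Lats2) and 0.943 (Ankrd1), and the smallest p it allows is 0.0286. The groups overlapped for all 10 members, where 2.72% of tested features had groups that do not overlap. With the replicate numbers as a block, over replicates 1 to 3 of each group, 13 features passed in place of 1, and 0 members did. The intervals of the 9 members reached down to 0.676-fold (Tead1) and up to 1.28-fold (Amotl1). A whole pancreas mixes epithelium with other cells, and fewer cells of a type and less RNA per cell cannot be told apart.

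**Figure D3:**
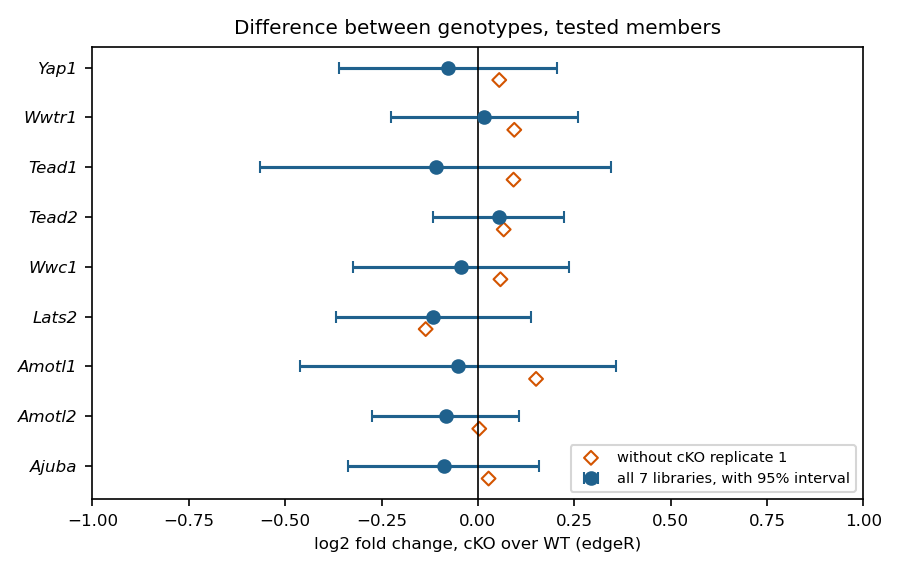
log2 fold change of cKO over WT for the 9 tested members, with circles and lines for the fit and its 95% interval over all 7 libraries and open diamonds for the fit without cKO replicate 1. Every interval spans 0, and 8 of the 9 diamonds lie above 0.

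The fitted changes leaned downward, and their direction changed without 1 of the libraries. Of the 9 tested members 7 were below 0 in the fit (median log2 fold change −0.08), where 54% of all tested features were below 0 (median −0.01). Without cKO replicate 1, only Lats2 was below 0 (−0.14) and the median was 0.06, with Yap1 at 0.06, Tead1 at 0.09 and Amotl1 at 0.15. Without WT replicate 2 the median was −0.03, with 6 of 9 below 0. Leaving out any other single library gave 7 or 8 of 9 below 0. With the replicate block, 8 of 9 were below 0 (median −0.10), and Yap1 was at −0.15, Tead1 at −0.22, Amotl1 at −0.14 and Wwc1 at −0.09, none of which passed (edgeR adjusted p = 0.966 to 0.971). Whether equal replicate numbers mark a pairing is not known. Within the 3 same-numbered pairs Yap1 was lower in the cKO library in 3 of 3. Tead1, Wwc1, Lats2, Amotl1, Amotl2 and Ajuba were lower in 2 of 3, and Wwtr1 and Tead2 in 1 of 3. cKO replicate 1 was the lowest of the 7 libraries for Yap1, Tead1, Wwc1, Amotl1, Amotl2 and Ajuba. It lay 0.54 below the 7-library mean on the log2 scale for Tead1, 0.51 for Amotl1 and 0.33 for Yap1. It lay within 0.02 of that mean for Tead2 and Lats2.

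Yap1, Tead1 and Amotl1 followed the same order of libraries to a large part: all 3 were above their means in cKO replicates 2 and 3 and WT replicates 2 and 3, and below them in cKO replicate 1 and WT replicates 1 and 4. These are the 3 members with exon lengths over 8000 bases (9257, 13570 and 10064). Over all 2203 features of that length at 10 CPM or more, the median deviation was −0.22 in cKO replicate 1, 0.01 and 0.10 in cKO replicates 2 and 3, and −0.00477, 0.10, 0.09 and −0.07 in WT replicates 1 to 4. Over the 1256 features under 2000 bases it was 0.21 in cKO replicate 1. The sign over long features was thus the same as that of Yap1, Tead1 and Amotl1 in each of the 7 libraries, although in WT replicate 1 it was only −0.00477. Shorter members were also low in cKO replicate 1: Ajuba (3646 bases) at −0.30, Wwc1 (4960) at −0.23, Amotl2 (6289) at −0.22 and Wwtr1 (4779) at −0.14. Tead2 (4788) and Lats2 (6971) were at 0.02 and −0.01 there. The part of transcript length or RNA quality in the members' differences was not tested.

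**Figure D4:**
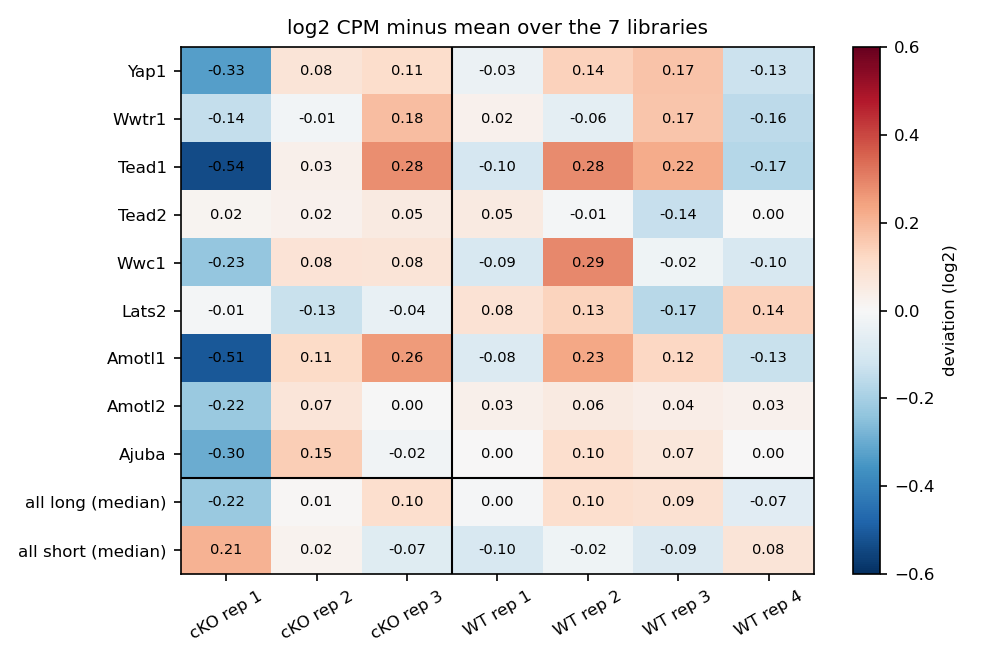
Deviation of log2 CPM from the mean over the 7 libraries for the 9 tested members, cKO libraries left of the line and WT libraries right of it, with the median over all long (over 8000 exon bases) and short (under 2000) features in the lowest rows. cKO replicate 1 is low for Tead1 (−0.54), Amotl1 (−0.51) and Yap1 (−0.33) and for long features as a whole (−0.22).

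Of 47 other genes of the pathway, 46 were matched and 43 tested, and 0 passed the edgeR test, nor was any under an unadjusted p of 0.05 or called by DESeq2 or limma-voom. Their fitted log2 fold changes ran from −0.21 to 0.25, with 31 below 0 and 12 above. Over all tested features 54% were below 0. The split of the 43 was 13 below and 30 above without cKO replicate 1. It was 22 and 21 without WT replicate 2, 23 and 20 without WT replicate 3, and 33 and 10 with the replicate block. Leaving out WT replicate 1, WT replicate 4 or cKO replicate 2 gave 32 and 11, and leaving out cKO replicate 3 gave 34 and 9. Lats1, the other LATS kinase, was not analysed here. In the kinase core 4 of 5 tested genes were below 0, with 1 of 5 without cKO replicate 1 and 2 of 5 without WT replicate 2. Without any other single library it was 4 or 5 of 5. The LATS cofactor gene Mob1a was the most abundant per kb at 31.6, with 144 ± 16.5 CPM in cKO and 158 ± 11.5 CPM in WT (SD, n = 3 and n = 4). Stk4, the MST1 kinase gene, had 61.7 ± 6.18 CPM in cKO and 64.8 ± 6.96 CPM in WT. Of the upstream regulators 13 of 16 were below 0, with 3 of 16 without cKO replicate 1, 8 without WT replicate 2 and 9 without WT replicate 3. The number was 13 or 14 without any other single library. The kinase gene Stk11 led them per kb at 31.6, and the kinase gene Taok3 and the polarity scaffold gene Dlg5 had their smallest p, with log2 fold changes of −0.11 (SE 0.0970) and −0.15 (SE 0.169).

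Among TEAD partners and repressors 2 of 4 tested genes were below 0. Vgll4, which competes with YAP1 for TEAD proteins, was the most abundant of these at 12.4 CPM per kb. It had 64.7 ± 6.35 CPM in cKO and 68.6 ± 1.72 CPM in WT. Tead3 had 45.2 ± 2.08 CPM in cKO and 47.3 ± 4.32 CPM in WT, and Tead4 5.14 ± 1.08 CPM in cKO and 4.74 ± 0.683 CPM in WT. Neither TEAD gene passed.

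Of 18 tested YAP targets 12 were below 0 (median log2 fold change −0.03). Without cKO replicate 1 there were 7 of 18 (median 0.03), and without WT replicate 3 there were 8 (median 0.02). Leaving out any other single library gave 10 to 12. Ccn1, which encodes the matricellular protein CYR61, had 27.3, 21.9 and 20.8 CPM in cKO and 26.1, 24.7, 24.8 and 29.3 CPM in WT. cKO replicates 2 and 3 lay below all WT libraries, whereas cKO replicate 1 was second only to WT replicate 4. The log2 fold change was −0.17 (SE 0.122). Ccn2, encoding CTGF, had 20.9, 14.6 and 15.0 CPM in cKO and 19.7, 11.4, 20.2 and 18.7 CPM in WT. For Ccn2 cKO replicate 1 was the highest library and WT replicate 2 the lowest, unlike Yap1 and Tead1, which had cKO replicate 1 lowest. Ccn1 and Ccn2 have 2019 and 2861 exon bases, against 9257 for Yap1 and 13570 for Tead1. The part of length in this contrast was not tested. The targets with the smallest p were Gadd45b, a stress-inducible gene, with 45.9 ± 8.58 CPM in cKO and 38.7 ± 3.58 CPM in WT, and F3, tissue factor, with 11.4 ± 1.40 CPM in cKO and 9.59 ± 1.17 CPM in WT. Their log2 fold changes were 0.25 (SE 0.134) and 0.25 (SE 0.150), and neither passed. Gadd45b, with 1589 exon bases, was highest in cKO replicate 1 (54.3 CPM), and cKO replicate 3 (37.1 CPM) lay below WT replicate 4 (42.9 CPM). Ccdc80, a matrix protein gene, was the most abundant target per kb at 35.2.

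Mesenchyme also expresses YAP and TEAD genes. The 8 summed mesenchyme markers ranged from 9953 to 10922 CPM in cKO and from 9910 to 12198 CPM in WT. The 8 summed markers of pancreatic epithelium ranged from 6549 to 8091 CPM in cKO and from 6752 to 11375 CPM in WT. Both sums overlapped between the groups. Much of the epithelial sum was 1 gene, Cpa1, with 4991 ± 842 CPM in cKO and 5739 ± 2070 CPM in WT. Col1a1, Col1a2 and Col3a1 made up much of the mesenchyme sum. They averaged 3432, 2331 and 3502 CPM in cKO and 3515, 2379 and 3472 CPM in WT.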

How the data were processed

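For 7 libraries of polyadenylated RNA the authors deposited raw whole-number read counts per feature. The tools HISAT2, StringTie and featureCounts and the build mm39 come from the submitters' processing notes, which give no roles or settings here, nor how reads matching several places were treated. Per the labels' protocols the kit had no step that keeps the strand. Names, biotypes and exon lengths (union of exons) came from GENCODE M21 on GRCm38, another build, with symbols for 26764 identifiers. Group and replicate number linked each column to its sample, and all columns were used.

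Counts were tested on the whole table with edgeR 4.0.16 in R 4.3.3 (filterByExpr, TMM factors, robust estimateDisp and glmQLFit, glmQLFTest, group as the only term), with Benjamini-Hochberg adjustment over 16910 features and a threshold of 0.05. SEs came from the coefficient and its F statistic, and log2 CPM used a prior count of 2. Alternatives included DESeq2 1.42.0 and limma 3.58.1. Deviations from group means correlated between same-numbered libraries (0.397, 0.531 and 0.178 over 10702 genes), and a replicate block was fitted as an alternative. Libraries of unlike number were not correlated in this way, so whether the numbers mark a pairing was not tested. No pair of libraries agreed within sampling noise (lowest chi-square 11.1 per degree of freedom, WT replicate 2 with cKO replicate 3). The chi-square was 14.4 for WT replicate 2 with cKO replicate 2. It was 33.7 for cKO replicate 1 with WT replicate 1 and 16.4 with WT replicate 4. WT replicate 3 was closest to cKO replicate 3 (13.1). The members, the gene lists and the rule for named genes (all members, and from each other list the smallest p and the highest level per kb, with Tead3, Tead4, Ccn1 and Ccn2) were chosen with earlier results of these data known. Each library is 1 animal per the labels.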

Additional observations from a re-analysis of the deposited data

Results flagged for a closer look

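Among the 10 members tested for a library far from the rest of the 4 WT libraries, 1 was picked out, and chance picks about 1 group in 20. Wwc1 had 169 CPM in WT replicate 2, against 129, 136 and 129 CPM in WT replicates 1, 3 and 4. WT replicate 2 was also the WT library highest for Tead1, Amotl1, Amotl2 and Ajuba and the only library with abundant Xist, and the part of embryo sex was not tested.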

How the results depend on the processing

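With 3 cKO and 4 WT libraries, differences smaller than the intervals given above could not be seen, and Ankrd1 was limited by its 41 counts in all. The number of members and of other pathway genes past the threshold stayed at 0 under every alternative run. Of 144 refitted values for single members 128 kept their sign and call, and 16 changed sign without passing the threshold. The number of all features past the threshold was 1, and it was 0 with DESeq2 size factors, library totals, a filter at 1 CPM or estimation that is not robust, 4 without a filter, 13 with DESeq2, 13 with the replicate block, and 0 to 3 when each library was left out. The cause was not tested. The members' median log2 fold change ran from −0.119 (without cKO replicate 2) to 0.0586 (without cKO replicate 1). Leaving out each library gave −0.153 to 0.0554 for Yap1, −0.0755 to 0.0944 for Wwtr1, −0.297 to 0.0925 for Tead1, −0.206 to 0.151 for Amotl1, −0.151 to 0.00359 for Amotl2, −0.100 to 0.0586 for Wwc1 and −0.202 to 0.0278 for Ajuba. With the replicate block Wwtr1 was at −0.0414, and the other members kept their sign and their side of the threshold. Without both WT replicate 4 and cKO replicate 1, the libraries highest in liver markers and a setting chosen after seeing the data, the median was 0.0149, and Tead1 (0.0167), Amotl1 (0.0927), Wwc1 (0.0149) and Ajuba (0.0103) changed sign.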

Other observations

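The 2 genes below were chosen after their values were seen. Vgll2, a TEAD cofactor known from skeletal muscle, had 5, 0 and 32 counts in cKO replicates 1 to 3, against 3, 0, 1 and 2 counts in WT replicates 1 to 4. In cKO replicate 3 the 5 summed skeletal muscle markers were at 79.1 CPM, against 2.78 and 2.96 CPM in the other cKO libraries and 2.49 to 5.79 CPM in WT.

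Fat4, an atypical cadherin gene upstream of the pathway, varied most among the tested upstream regulators. It had 39.4, 88.5 and 126 CPM in cKO and 50.6, 136, 107 and 64.0 CPM in WT. It was low in the same libraries (cKO replicate 1 and WT replicates 1 and 4) as Yap1, Tead1 and Amotl1. Fat4 has 17165 exon bases, and the median deviation over features longer than 8000 bases was also below 0 in those libraries. The part of transcript length was not tested.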
